A study of Homo sapiens with 4 samples.

Results

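The uninduced state of SUM159 was compared with the uninduced state of MDA-MB-231, both of them established lines grown from triple-negative breast cancers. The comparison rests on 2 of the 4 arrays of the series, the control array of each line, and the difference of each gene is the log2 signal in SUM159 minus that in MDA-MB-231. Genes came from probesets (groups of probes summarised to 1 value) that carry exactly 1 gene symbol, with the brightest probeset over the 4 arrays taken per gene. Of 22465 such genes, 14418 averaged at least 4.035 over the 4 arrays (the median of all probesets, log2 scale) and were compared; 11883 of them are protein coding.

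All cells, controls included, carried a stably integrated lentiviral construct from which miR-100 is made when a tetracycline-type drug is present, and had been selected with puromycin. The control cells of each line grew for 1 week without the drug and the induced cells for 1 week with it. Some labels call the drug doxycycline and others tetracycline, and the design text names SUM149 where every sample label names SUM159; the sample labels are followed. SUM159 was grown in Ham's F12 medium with hydrocortisone and insulin and MDA-MB-231 in DMEM without them, each with 5% serum, so line and medium cannot be told apart in any value given here. There was 1 array per line and state, with no replicate and no statement of separate cultures, so a difference between the control arrays has no replicate check and no test.

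Triple-negative tumours lack the oestrogen receptor, the progesterone receptor and ERBB2 amplification. SUM159 and MDA-MB-231 are both used as models of the mesenchymal form of this disease, in which epithelial junction genes are low and vimentin is high.

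Log2 signals are given below as the control array and then the induced array of each line, and the induced arrays serve only to see whether a difference between the lines came up again. A log2 difference of 1 is 2-fold. Of the kept genes, 1679 were 2-fold or more higher in SUM159, which is 11.6%, and 2009 were 2-fold or more higher in MDA-MB-231, which is 13.9%. Together these are 3688 genes, or 25.6%, and 7.85% of all kept genes differed by 4-fold or more. The median difference over all kept genes was 0.01, and 50.1% of the differences were above 0. Between the control and induced arrays of the same line, 1.31% of kept genes were past 2-fold in SUM159, against 0.146% in MDA-MB-231. Gene by gene, the signals on the control arrays of the lines correlated at 0.891 (Pearson's r across genes, which are not independent replicates), against 0.992 and 0.996 between the states of SUM159 and of MDA-MB-231.

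**Figure D1:**
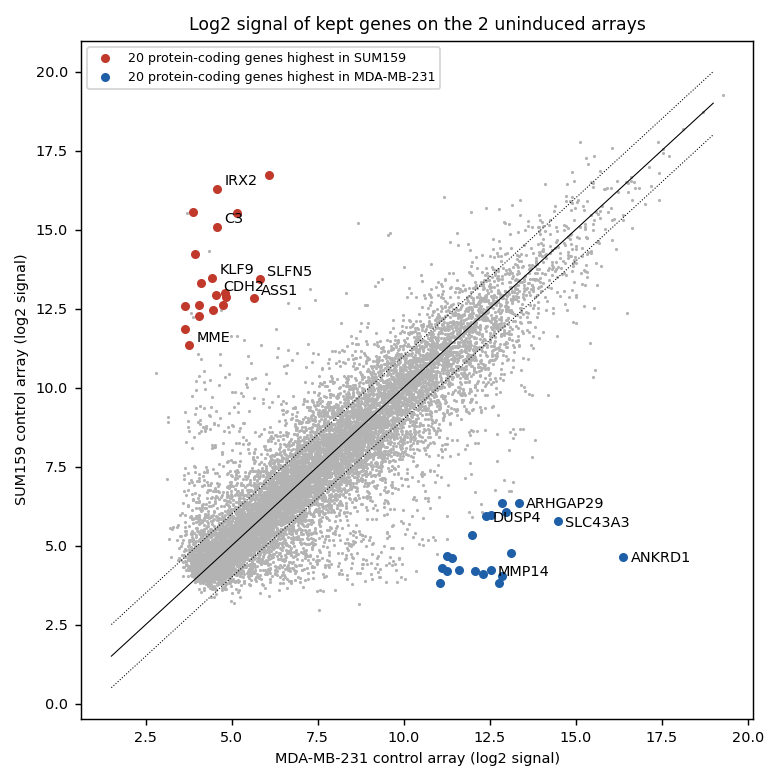
Log2 signal of each of the 14418 kept genes on the MDA-MB-231 control array (horizontal) and the SUM159 control array (vertical). The solid line marks equal signal and the dotted lines mark 2-fold. The 20 protein-coding genes with the largest difference in each direction are coloured, and IRX2 and ANKRD1 lie farthest from the line among them.

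Most of these differences came up again on the induced arrays. Of the 1679 genes higher in SUM159, 1344 (80.0%) were 2-fold or more higher there too, and of the 2009 higher in MDA-MB-231, 1658 (82.5%). As a share of all kept genes, these repeated differences were 9.32% and 11.5%. The sign turned for 14 and 9 genes, and 0 genes were past 2-fold in the opposite direction. A fit with limma over all 4 arrays, with state as a block and Benjamini-Hochberg adjustment over all kept genes, called 2998 genes higher in SUM159 (20.8%), against 3438 higher in MDA-MB-231 (23.8%). Its spread is how far a line difference changed with induction, with 1 residual degree of freedom, and is not a spread between cultures. The smallest adjusted p it gave was 0.001149, shared by genes such as IRX2. Genes given below with a limma value were picked for their control difference, which the fit also uses. Their limma values and p are therefore descriptions only.

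**Figure D2:**
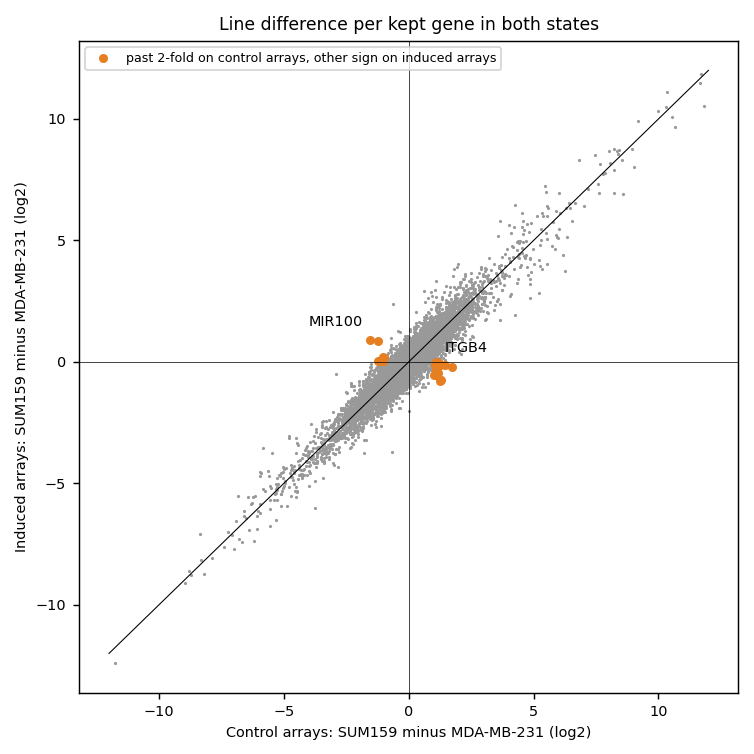
Difference between the lines (SUM159 minus MDA-MB-231, log2) of each kept gene on the control arrays (horizontal) and on the induced arrays (vertical), with the line of equality. Orange points are the 14 and 9 genes past 2-fold on the control arrays whose sign turned on the induced arrays, among them MIR100 and ITGB4.

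A gene that passed the signal filter through 1 line alone had to differ. Among the genes past 2-fold, 136 of those higher in SUM159 and 102 of those higher in MDA-MB-231 were below the cutoff on the other line's control array. There the low signal may be background, so the difference bounds the change from below.

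Several defining markers of epithelial cells read low in both lines, and mesenchymal genes such as vimentin were bright. Other epithelial genes had signal. Of those measured, 25 of 36 junction genes, 12 of 22 luminal genes and 10 of 20 basal genes were kept, against 18 of 20 mesenchymal genes. Over all protein-coding genes measured, 11883 of 16834 were kept, a share near that of the junction genes. CDH1, which codes for E-cadherin, was below the cutoff on average, at 3.77 and 3.77 in SUM159 and 4.03 and 3.97 in MDA-MB-231. The oestrogen receptor gene ESR1 read 3.68 and 3.62 in SUM159 and 3.62 and 3.58 in MDA-MB-231, and the progesterone receptor gene PGR read 3.17 and 3.18 against 3.16 and 2.98. The epithelial splicing regulator ESRP1 and the basal keratins KRT5 and KRT14 also averaged below the cutoff. Vimentin (VIM), the intermediate filament of mesenchymal cells, was bright in both lines, at 15.76 and 16.23 in SUM159 and 15.20 and 15.29 in MDA-MB-231. ZEB1, a repressor of epithelial genes, read 11.45 and 11.18 against 11.14 and 11.50. Neither gene differed by 2-fold.

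Of 14 blood cell markers measured, 5 were kept, and PTPRC, CD3D, MS4A1 and SPI1 averaged below the cutoff. The exception was CD68, a lysosomal protein of macrophages that other cells also make, at 10.50 and 11.12 in SUM159 and 13.13 and 13.12 in MDA-MB-231. Of 10 endothelial markers, VWF, CDH5, TEK and PECAM1 averaged below the cutoff, while the junction protein ESAM read 5.44 and 4.94 against 8.58 and 8.33, and the transcription factor ERG was higher in SUM159 by 1.57. Of 10 fibroblast markers, 6 were kept: COL1A1 and DCN were higher in SUM159, by 1.98 and 1.24, and S100A4 in MDA-MB-231, with a difference of -2.49. FAP, LUM, PRRX1 and TCF21 averaged below the cutoff. Of the 2 fibroblast markers higher in SUM159, 1 was past 2-fold again on the induced arrays. On the MDA-MB-231 control array 2 of the 6 kept were below the cutoff, as was ERG. Among the 4 above it on both control arrays, 1 was higher in SUM159 and 1 in MDA-MB-231. None of the 6 kept markers of adipose, muscle, melanocytic and neural cells differed by 2-fold.

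IRX2 had the largest difference of any protein-coding gene in favour of SUM159. It was picked for that difference, so its limma p is a description only. This Iroquois homeobox transcription factor read 16.28 and 16.67 in SUM159 and 4.58 and 4.84 in MDA-MB-231, a control difference of 11.70, with a limma difference of 11.77 ± 0.120 (SE) and an adjusted p of 0.001149. The long noncoding RNA CCAT1, picked after its values were seen, differed slightly more: 15.51 and 14.16 against 3.70 and 3.63, a difference of 11.81. The MDA-MB-231 arrays were below the cutoff for CCAT1 and above it for IRX2.

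Several other genes among the 20 highest in SUM159 code for surface or secreted proteins. ANPEP, the surface aminopeptidase CD13, read 15.56 and 15.29 against 3.88 and 3.81. MME, the surface metalloprotease CD10, read 11.34 and 11.29 against 3.77 and 3.97. C3, the central component of complement, read 15.09 and 14.65 against 4.56 and 4.57, a difference of 10.53. In each of these the lines were far apart and the states of a line close together. ENPP2, which codes for autotaxin, the secreted enzyme that makes lysophosphatidic acid, read 14.24 and 14.01 against 3.94 and 3.53. LPAR1, a receptor for that lipid, ran the other way, at 6.54 and 6.14 in SUM159 and 10.29 and 10.32 in MDA-MB-231. The matrix protein gene ABI3BP differed by 10.65, the intestinal serine protease gene TMPRSS15 by 10.35, and the GPI-anchored protein gene CD109 by 8.94. The remaining genes among the 20 highest in SUM159 were FEZ1, KLF9, AFF2, CDH2, NETO2, TMTC1, IL20RB, FKBP10, PKNOX2, PDPN, SLFN5 and ASS1, with differences from 9.20 for FEZ1 to 7.17 for ASS1. All 20 were at least 6.92 higher in SUM159 on the induced arrays as well.

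ANKRD1 stood farthest on the MDA-MB-231 side and was picked for that, so its limma p is likewise a description only. This ankyrin repeat protein is a known target of the Hippo pathway co-activator YAP, and its gene read 4.64 and 4.03 in SUM159 and 16.39 and 16.42 in MDA-MB-231. The control difference was -11.75 and the limma difference -12.07 ± 0.204 (SE), adjusted p 0.001167. The cystatin genes CST4 and CST1, which code for secreted inhibitors of cysteine proteases, differed by -8.94 and -7.89; they are near-identical paralogs whose probes may share signal. DKK1, a secreted inhibitor of Wnt signalling, read 4.05 and 3.95 against 12.85 and 12.54. The nucleobase transporter gene SLC43A3 read 5.77 and 5.60 against 14.49 and 14.39. For both, the induced arrays repeated the difference.

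MMP14, a membrane-bound protease that activates MMP2, read 4.22 and 4.24 in SUM159 and 12.53 and 12.39 in MDA-MB-231. MMP2 itself was higher in SUM159, at 10.90 and 12.26 against 4.10 and 3.93. The protease and the enzyme that activates it thus had opposite differences, -8.31 and 6.80. PYGL, which breaks down glycogen, differed by -8.20, and PAPSS2, which makes the sulfate donor of the cell, by -7.38. STC1, a secreted glycoprotein, read 4.76 and 6.22 against 13.13 and 13.31. SLAMF7, PKP2, ARHGAP29, SMARCA1, ARHGDIB, NFE2L3, POGLUT3, PXDN, CCN2, F2RL2 and DUSP4 complete the 20 highest in MDA-MB-231, with differences from -7.24 for SLAMF7 to -6.45 for DUSP4.

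**Figure D3:**
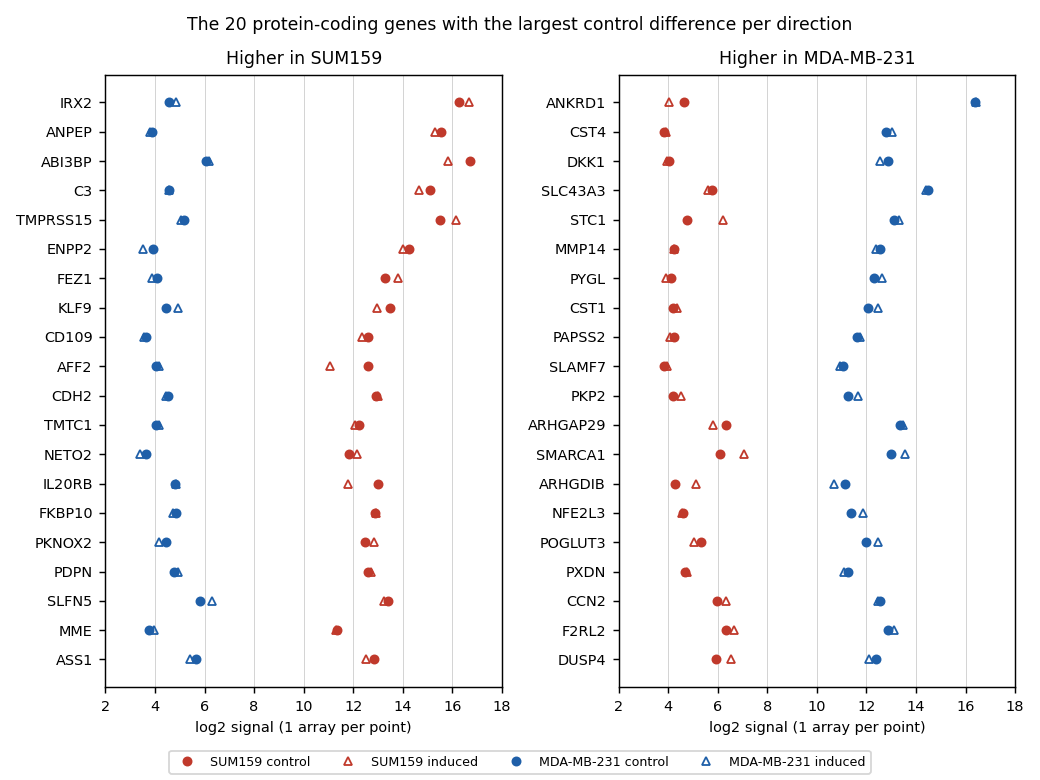
Log2 signal of the 20 protein-coding genes with the largest control difference in each direction, 1 point per array (filled circles control, open triangles induced, red SUM159, blue MDA-MB-231). In each row both arrays of one line lie apart from both arrays of the other. The states of SUM159 are more than 2-fold apart for AFF2 (12.61 and 11.08), STC1 (4.76 and 6.22) and IL20RB (12.99 and 11.77).

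The 54 gene lists examined next were chosen by pathway or function with earlier results of these data known, so a list's count describes these arrays and is not independent evidence. A list is read against the shares over all kept genes, 11.6% higher in SUM159, against 13.9% higher in MDA-MB-231, and against their median of 0.01.

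**Figure D4:**
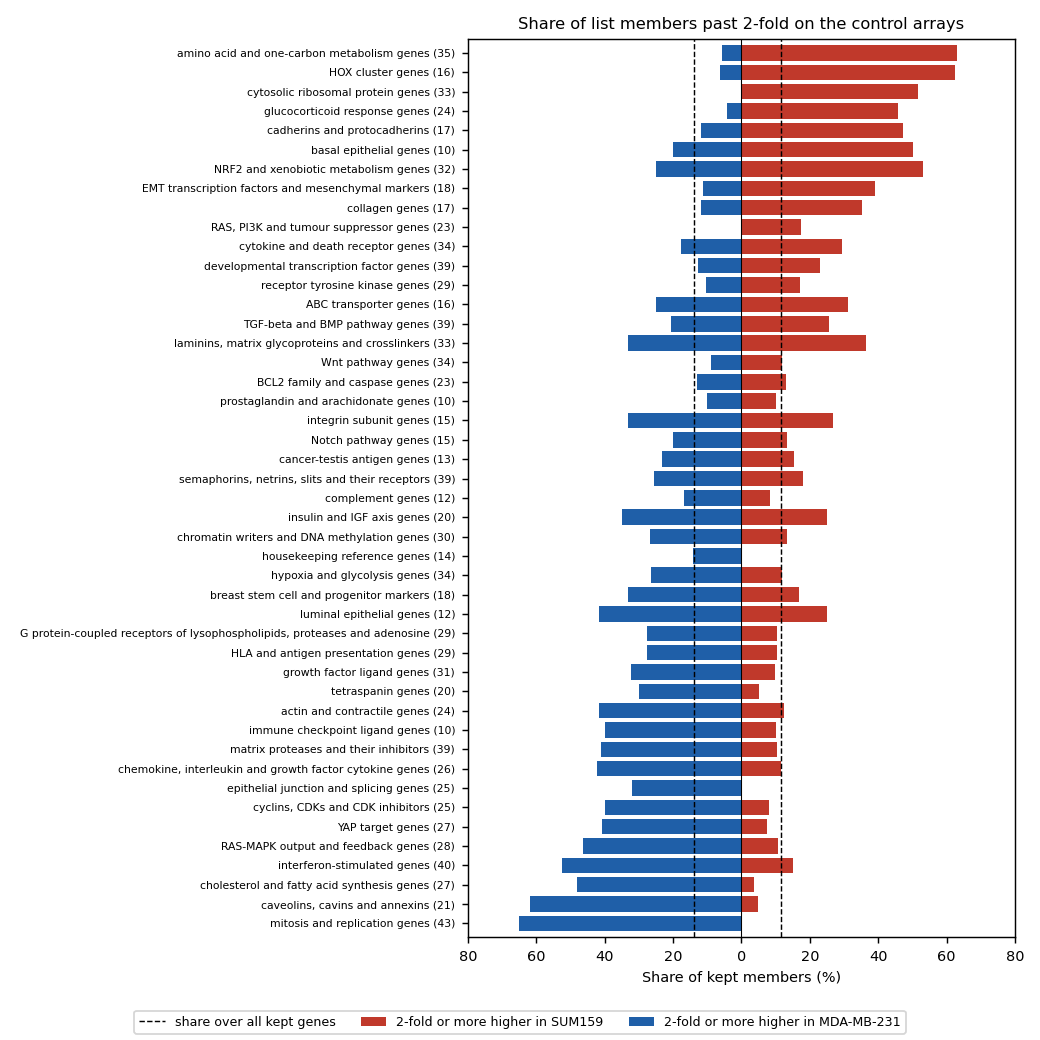
Share of the kept members of each list (number of kept members in brackets, lists with 10 or more) that were 2-fold or more higher in SUM159 (red, to the right) or in MDA-MB-231 (blue, to the left) on the control arrays. Dashed lines mark the shares over all kept genes, 11.6% and 13.9%. Amino acid, HOX and ribosomal protein genes lie at the SUM159 end and mitosis, caveolin and annexin, and cholesterol genes at the MDA-MB-231 end.

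YAP binds TEAD transcription factors in the nucleus, and its targets code for matrix-associated and cytoskeletal proteins. Of 27 YAP target genes kept, 11 were 2-fold or more higher in MDA-MB-231 and 2 in SUM159, with a median of -0.81. CCN2, the matricellular protein CTGF, read 5.96 and 6.32 in SUM159 and 12.54 and 12.47 in MDA-MB-231, and the limma difference was -6.37 ± 0.161 (SE), adjusted p 0.001583. CCN1, its relative CYR61, read 10.02 and 10.92 against 13.50 and 13.51. F3, the tissue factor that starts blood clotting, read 6.74 and 6.71 against 13.12 and 13.62. For each, both MDA-MB-231 arrays were above both SUM159 arrays. The exception of size was VGLL3, a TEAD cofactor, at 11.13 and 11.34 against 8.13 and 8.43, higher in SUM159. On the induced arrays 7 of the 11 were again past 2-fold and the median was -0.43.

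The promoters of CCN2 and ANKRD1 are shown because these genes had the largest differences of the list. They are RefSeq promoter sequences of build GRCh38.p14, from 250 bases before to 50 bases after the start of the gene, at chr6:131951323-131951622 and chr10:90921038-90921337, both on the minus strand. Capitals mark GGAATG, the core of the site that TEAD factors bind, which was searched on both strands.
CCN2: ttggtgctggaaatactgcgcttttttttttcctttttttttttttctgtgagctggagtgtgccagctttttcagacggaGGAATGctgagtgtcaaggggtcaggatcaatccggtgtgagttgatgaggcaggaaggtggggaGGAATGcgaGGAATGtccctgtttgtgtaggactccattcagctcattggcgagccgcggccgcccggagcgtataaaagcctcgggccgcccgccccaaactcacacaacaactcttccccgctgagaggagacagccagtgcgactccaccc
ANKRD1: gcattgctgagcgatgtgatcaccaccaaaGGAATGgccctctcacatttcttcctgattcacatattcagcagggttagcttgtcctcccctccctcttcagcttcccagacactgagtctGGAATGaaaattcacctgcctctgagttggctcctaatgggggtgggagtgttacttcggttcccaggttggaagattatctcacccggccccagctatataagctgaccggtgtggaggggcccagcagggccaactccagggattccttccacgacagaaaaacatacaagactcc
CCN2 holds 3 matches and ANKRD1 2, with no overlap between them. Among YAP targets with a promoter in the table, 8 of 21 held the motif (38.1%), against 4928 of all 35116 promoters. It was found in 4 of the 11 members past 2-fold and in 4 of the 10 within 2-fold.

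RAS and MAPK signalling drives genes that feed back on the pathway, such as DUSP phosphatases, Sprouty proteins and growth factor ligands. Of 28 kept genes of this kind, 13 were 2-fold or more higher in MDA-MB-231 and 3 in SUM159, with a median of -0.64. DUSP6, the phosphatase of ERK, read 6.07 and 6.96 in SUM159 and 12.29 and 12.53 in MDA-MB-231. DUSP4, a nuclear phosphatase of the same family, read 5.93 and 6.53 against 12.38 and 12.11. PHLDA1 read 8.34 and 9.94 against 13.81 and 13.68. The SUM159 induced array was brighter than its control array for these 3 genes, and the difference between lines was smaller there. SPRY1, an inhibitor of receptor signalling, differed by -3.48, and the architectural factor gene HMGA2 by -3.01. MYC ran against the list, at 14.62 and 15.00 in SUM159 and 11.34 and 11.21 in MDA-MB-231. JUN, SPRED2 and ETV5 were within 0.12 of equality. The median of the list was -0.22 on the induced arrays, although 12 of the 13 genes higher in MDA-MB-231 were past 2-fold again.

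Of 23 RAS, PI3K and tumour suppressor genes kept, 4 were past 2-fold, and all 4 were higher in SUM159. This share of 17.4% compares with 25.6% of all kept genes past 2-fold and 11.6% higher in SUM159. Most members were within 2-fold, and 10 of the 23 differences were above 0 and 13 below. NF1, which codes for the RAS-inactivating protein neurofibromin, read 11.39 and 11.65 in SUM159 and 8.94 and 8.94 in MDA-MB-231. NF2, which codes for the Hippo pathway regulator merlin, read 9.05 and 8.94 against 7.21 and 6.87. PIK3R1, the regulatory subunit of PI3K, read 13.11 and 12.30 against 7.27 and 7.65, a difference of 5.84. CSMD1 differed by 1.17. CDKN2A and CDKN2B, which code for inhibitors of the G1 kinases, and their neighbour MTAP were below the cutoff on all 4 arrays. The median of the list was -0.10.

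Ligands and receptors differed in both directions. HBEGF, an EGF receptor ligand, read 6.55 and 7.54 in SUM159 and 11.02 and 10.89 in MDA-MB-231, whereas EREG, another ligand of that receptor, read 9.67 and 11.37 against 5.66 and 5.72. EGFR itself was within 2-fold, at 12.98 and 13.46 against 13.28 and 13.41. Of 31 growth factor ligands kept, 10 were 2-fold or more higher in MDA-MB-231, among them VEGFC and FGF5 with differences of -4.15 and -4.01, and 3 in SUM159. Receptor tyrosine kinases were nearer balance, with 5 higher in SUM159, against 3 in MDA-MB-231 of 29. Of the 29, 4 were below the cutoff on the MDA-MB-231 control array and 1 on the SUM159 control array. Among the 24 above it on both, 2 were higher in SUM159 and 3 in MDA-MB-231. MERTK, a receptor for GAS6, differed by -3.38, and GAS6 itself by -3.40. ROS1, an orphan receptor kinase, read 8.94 and 6.42 in SUM159 and 3.74 and 3.58 in MDA-MB-231, and its SUM159 arrays lay far apart.

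In the insulin and IGF axis, 5 of 20 kept genes were 2-fold or more higher in SUM159, against 7 in MDA-MB-231. The adaptor gene IRS1 read 5.09 and 5.20 in SUM159 and 9.12 and 8.86 in MDA-MB-231, and the receptor gene IGF1R read 8.28 and 8.60 against 10.85 and 10.48. IGFBP1, an IGF-binding protein, differed by -5.25. FOXO1, a transcription factor that insulin signalling keeps out of the nucleus, read 10.79 and 9.72 against 5.57 and 5.53. Insulin was in the medium of SUM159 alone, and medium and line cannot be told apart.

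Glucocorticoid response genes lay on the SUM159 side: of 24 kept, 11 were 2-fold or more higher there and 1 in MDA-MB-231, with a median of 0.98. These genes are switched on by the hormone-bound glucocorticoid receptor, and hydrocortisone was in the medium of SUM159 alone. KLF9, a transcription factor, read 13.48 and 12.96 in SUM159 and 4.44 and 4.92 in MDA-MB-231, with a limma difference of 8.54 ± 0.288 (SE) and adjusted p 0.001816. ZBTB16, the zinc finger factor PLZF, read 10.12 and 9.82 against 5.41 and 5.42. FKBP5, a chaperone partner of the receptor, read 13.91 and 12.96 against 10.79 and 10.65. All 11 genes were again past 2-fold on the induced arrays. The clock gene PER1 differed by 3.12 and the glutamine synthetase gene GLUL by 2.25. The receptor gene NR3C1 read 8.69 and 8.51 against 8.82 and 9.02, and ERRFI1, a feedback inhibitor of EGFR, was the member higher in MDA-MB-231, with a difference of -1.61. The part of the hormone in these differences was not tested.

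Amino acid and one-carbon metabolism had the highest share on the SUM159 side of all lists drawn in the plot of shares by list. Of 35 genes kept, 22 were 2-fold or more higher in SUM159 (62.9%), against 2 in MDA-MB-231, and the median was 1.35. ASS1, which makes the precursor of arginine from citrulline, read 12.82 and 12.50 in SUM159 and 5.65 and 5.40 in MDA-MB-231. PHGDH, the first enzyme of serine synthesis, read 8.86 and 8.77 against 4.47 and 4.47. MTHFD2, a mitochondrial folate enzyme, read 13.33 and 13.39 against 9.26 and 9.23. These arrays of a line differed by at most 0.32. The arginine transporter gene SLC7A2 differed by 4.66, the asparagine synthetase gene ASNS by 2.94 and the cystathionine synthase gene CBS by 2.78. ASL, the enzyme after ASS1, was equal, at 5.57 and 5.48 against 5.54 and 5.40. Ham's F12 and DMEM also differ in their amino acids, and that was not tested.

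The ASNS promoter is shown as an example, since ATF4, the factor of the amino acid response, acts through it. It lies at chr7:97872359-97872658 on the minus strand (RefSeq, GRCh38.p14). Capitals mark TGATGNAA, the core of the ATF4 response element, searched on both strands.
ASNS: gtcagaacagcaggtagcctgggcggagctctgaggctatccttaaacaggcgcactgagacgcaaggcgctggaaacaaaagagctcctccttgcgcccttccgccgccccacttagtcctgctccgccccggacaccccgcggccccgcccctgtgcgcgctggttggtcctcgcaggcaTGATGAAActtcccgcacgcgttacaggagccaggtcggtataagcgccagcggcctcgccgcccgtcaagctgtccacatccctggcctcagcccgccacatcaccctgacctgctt
Of the list, 8 of 30 promoters held the motif (26.7%), against 3.62% of all promoters. The MTHFD2 promoter held 0 matches in this window.

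Ribosomal protein genes lay on the same side with small differences. All 33 kept were above 0, and 17 were 2-fold or more higher in SUM159 against 0 in MDA-MB-231, with a median of 1.04 on both pairs of arrays. RPS25 read 15.19 and 15.20 in SUM159 and 13.07 and 13.13 in MDA-MB-231, and RPS16 read 17.32 and 17.40 against 15.53 and 15.41. Of the other end of the list, RPL6 differed by 0.02 and RPL31 by 0.04. These genes have many processed pseudogenes, so single members are uncertain.

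The genes of mitosis and DNA replication had the reverse pattern: 28 of 43 kept were 2-fold or more higher in MDA-MB-231 and 0 in SUM159, and 42 of the 43 were below 0. The median was -1.27 on the control arrays and -1.24 on the induced arrays. AURKB, the kinase of the chromosomal passenger complex, read 6.73 and 6.92 in SUM159 and 10.62 and 10.57 in MDA-MB-231. TYMS, which makes thymidylate for DNA synthesis, read 8.62 and 8.93 against 12.12 and 12.08. MKI67, the proliferation marker Ki-67, read 13.49 and 13.33 against 15.34 and 15.43. In all 3 the MDA-MB-231 arrays were both above the SUM159 arrays. MCM6, CDC20 and CDT1 were near equality, with differences of -0.19, -0.14 and 0.23. The growth rate of the cultures was not used here, and its part in this difference was not tested.

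Cyclins and their kinases followed in part, with 10 of 25 higher in MDA-MB-231 and 2 in SUM159. E2F3, an S-phase transcription factor, differed by -2.72, CCNE2 by -2.56 and CDK1 by -2.24. CCND2, a D-type cyclin, was the largest exception, at 8.61 and 9.17 in SUM159 and 4.77 and 5.21 in MDA-MB-231. RBL2, the pocket protein p130 of resting cells, was higher in SUM159, at 11.15 and 11.57 against 8.76 and 9.10, while its relative RBL1 (p107) was higher in MDA-MB-231, at 10.04 and 9.46 against 12.35 and 12.96. The maintenance DNA methyltransferase gene DNMT1 and its partner gene UHRF1 had differences of -2.82 and -2.52.

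**Figure D5:**
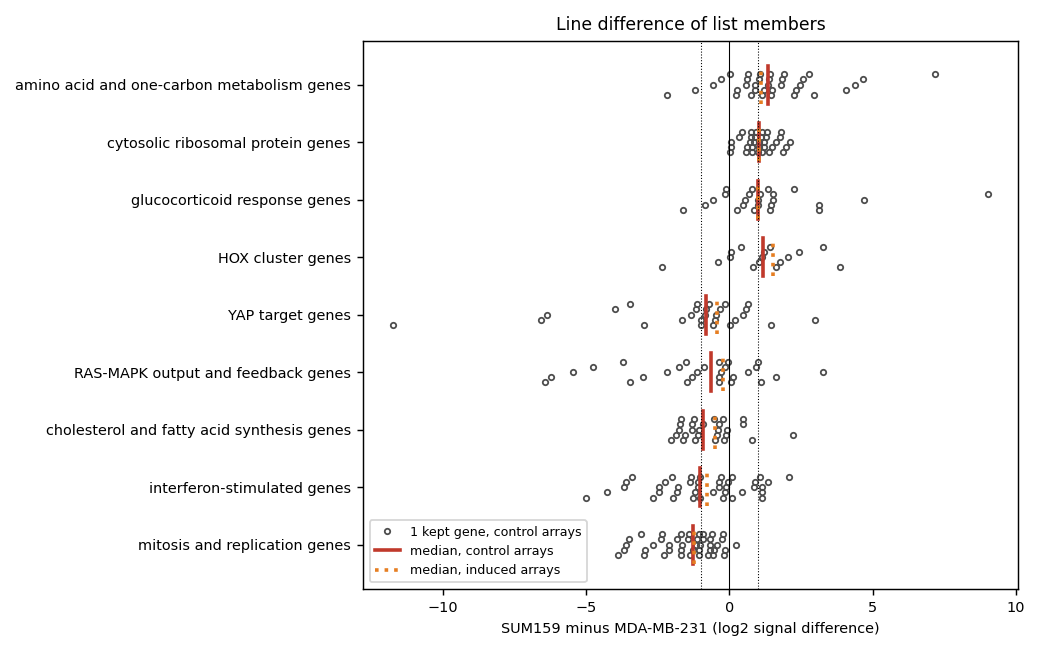
Difference between the lines (SUM159 minus MDA-MB-231, log2) of each kept member of 9 lists on the control arrays (open circles), with the list's median on the control arrays (solid red bar) and on the induced arrays (dotted orange bar). Dotted lines mark 2-fold. Every ribosomal protein gene lies above 0, and 42 of 43 mitosis and replication genes lie below 0.

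Interferon-stimulated genes were mixed but leaned to MDA-MB-231, with 21 of 40 kept members 2-fold or more higher there, 6 higher in SUM159 and a median of -1.03. GBP3, an interferon-induced GTPase, read 5.26 and 5.57 in SUM159 and 10.28 and 10.74 in MDA-MB-231. RIGI, a sensor of viral RNA, read 6.11 and 6.33 against 10.38 and 10.27. IFIT3 read 5.21 and 4.95 against 8.81 and 8.65, and the limma difference was -3.65 ± 0.118 (SE), adjusted p 0.001749. Another set of the list went the other way: BST2 (tetherin) read 9.66 and 8.92 in SUM159 and 7.57 and 7.58 in MDA-MB-231, and IFITM1 and IFITM3, which block viral entry, differed by 1.34 and 1.14. These 3 and IFIT1, IFIT2 and IFIT5 below were picked after their values were seen. Of the genes past 2-fold, 15 of the 21 and 3 of the 6 were past 2-fold again on the induced arrays. IFIT2, IFIT3, IFIT1 and IFIT5 are neighbours in the genome and differed by -2.24, -3.60, -1.80 and -2.45.

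The IFIT3 promoter, at chr10:89327747-89328046 on the plus strand (RefSeq, GRCh38.p14), shows an element found in many but not all promoters of the list. Capitals mark the interferon-stimulated response element, a pair of TTTC blocks with 2 free bases between them, searched on both strands; its 2 matches do not overlap.
IFIT3: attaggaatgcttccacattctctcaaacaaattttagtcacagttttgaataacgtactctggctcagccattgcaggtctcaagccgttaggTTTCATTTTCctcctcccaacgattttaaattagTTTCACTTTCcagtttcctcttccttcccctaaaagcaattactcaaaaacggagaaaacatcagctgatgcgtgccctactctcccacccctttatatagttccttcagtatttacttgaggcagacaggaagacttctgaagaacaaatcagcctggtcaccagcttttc
The element was found in 22 of 33 promoters of the list (66.7%), against 3.57% of all promoters. It was in 17 of the 22 members past 2-fold, whichever the direction, and in 5 of the 11 within 2-fold.

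Of 29 HLA and antigen presentation genes kept, 8 were 2-fold or more higher in MDA-MB-231 and 3 in SUM159, and the median turned from -0.34 to 0.10 on the induced arrays. CD74, the chaperone of class II molecules, read 4.90 and 4.83 in SUM159 and 7.32 and 7.58 in MDA-MB-231, and HLA-DRA read 3.93 and 3.68 against 6.50 and 6.97. HLA-DMA, which loads peptides on them, differed by -3.32. ULBP1, a ligand of the natural killer receptor NKG2D, was the largest SUM159 difference of this list, at 9.70 and 8.39 against 4.44 and 4.44. CD274 (PD-L1) read 6.20 and 8.48 against 9.11 and 8.97, so its difference of -2.91 rests on the SUM159 control array, and limma over both states did not call it (adjusted p 0.1165).

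Cytokines and their receptors were also split. Of 26 cytokine genes kept, 11 were higher in MDA-MB-231, among them IL24 at 3.86 and 4.18 in SUM159 and 9.48 and 8.66 in MDA-MB-231, and LIF, which differed by -3.73. IL32 and IL1A were higher in SUM159, by 4.91 and 2.58. Below the cutoff were 3 of the 26 on the SUM159 control array and 2 on the MDA-MB-231 control array. Among the 21 above it on both, 8 were higher in MDA-MB-231 and 3 in SUM159. CXCR4, the receptor of the chemokine CXCL12, read 4.28 and 4.51 in SUM159 and 8.47 and 8.91 in MDA-MB-231. The receptor genes IL20RB, IL1RL1 and IL18R1 were higher in SUM159, by 8.20, 6.25 and 5.89, and for each the SUM159 induced array was dimmer than the control array. Of 34 receptors kept, 10 were higher in SUM159, against 6 in MDA-MB-231.

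The lines differed in mesenchymal adhesion and matrix genes. CDH2, which codes for N-cadherin, read 12.93 and 13.00 in SUM159 and 4.54 and 4.45 in MDA-MB-231, and CDH11, another mesenchymal cadherin, read 4.70 and 4.54 against 7.28 and 7.45. FN1 (fibronectin) read 15.57 and 15.56 against 11.97 and 11.63, and TGFBI, a matrix protein induced by TGF-beta, 15.22 and 14.51 against 8.67 and 8.72. PDPN (podoplanin) differed by 7.85. Of 18 genes of this list kept, 7 were 2-fold or more higher in SUM159, against 2 in MDA-MB-231, with a median of 0.47, and all 9 repeated on the induced arrays. Of the 18, 3 were below the cutoff on the MDA-MB-231 control array, and among the 15 above it on both control arrays 4 were higher in SUM159, with a median of 0.31. Of 17 collagens, 6 were higher in SUM159, led by COL6A3 at 9.38 and 9.69 against 5.06 and 5.10, and 2 in MDA-MB-231. Of the matrix glycoproteins and crosslinkers, 12 were higher in SUM159, against 11 in MDA-MB-231 of 33, a share above that of all genes in both directions. SPARC and TNC were higher in SUM159, by 5.49 and 5.45. PLOD2, a collagen lysyl hydroxylase, and TGM2, which crosslinks proteins, were higher in MDA-MB-231. TGM2 read 7.08 and 9.59 in SUM159 and 12.92 and 13.13 in MDA-MB-231, and its SUM159 arrays were 2.51 apart.

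MDA-MB-231 had more signal of some epithelial junction genes, although CDH1 averaged below the cutoff. Of 25 such genes kept, 8 were 2-fold or more higher in MDA-MB-231 and 0 in SUM159, and all 8 repeated. The desmosomal genes PKP2 and DSP read 4.19 and 4.53, and 6.74 and 7.38, in SUM159, against 11.26 and 11.66, and 13.05 and 13.21, in MDA-MB-231. OCLN (occludin) differed by -2.14 and CLDN7 by -2.31. Basal epithelial genes leaned the other way: of 10 kept, 5 were 2-fold or more higher in SUM159 and 2 in MDA-MB-231. Their median was 1.02 on the control arrays and 0.37 on the induced arrays, where 3 of the 5 and both of the 2 repeated. Among the 8 above the cutoff on both control arrays, 3 were higher in SUM159 and 2 in MDA-MB-231. Of 12 luminal genes kept, 5 were higher in MDA-MB-231 and 3 in SUM159, and all 8 repeated. KRT19, a luminal keratin, read 4.92 and 4.96 against 9.69 and 9.52, and KRT8 and KRT18, chosen after their values were seen, differed by -1.31 and -1.54. KRT7, a keratin of simple epithelia, was higher in SUM159, at 12.13 and 12.10 against 10.14 and 10.03, as was the carbonic anhydrase gene CA12, at 10.86 and 12.03 against 6.75 and 6.71.

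Of 39 matrix proteases and inhibitors, 16 were 2-fold or more higher in MDA-MB-231, 4 in SUM159 and 19 were within 2-fold. On the induced arrays 12 of the 16 repeated. Below the cutoff were 5 of the 39 on the SUM159 control array and 2 on the MDA-MB-231 control array. Among the 32 above it on both, 14 were higher in MDA-MB-231 and 3 in SUM159. PLAU (urokinase) read 5.22 and 5.70 in SUM159 and 11.27 and 11.85 in MDA-MB-231, whereas the metalloprotease genes ADAMTS9 and ADAM12 differed by 4.81 and 4.70. Of 21 caveolins, cavins and annexins, 13 were higher in MDA-MB-231 and 1 in SUM159, and 7 of the 13 repeated; the median was -1.08 on the control arrays and -0.61 on the induced arrays. ANXA6, a calcium-dependent membrane-binding protein, read 7.68 and 8.04 against 12.71 and 12.56. The myosin light chain gene MYL9 read 7.79 and 8.70 against 13.74 and 13.38, and the tropomyosin gene TPM2, of the same contractile list, 11.09 and 11.92 against 6.89 and 6.35.

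Of 27 cholesterol and fatty acid synthesis genes kept, 13 were 2-fold or more higher in MDA-MB-231 and 1 in SUM159, with a median of -0.94 on the control arrays and -0.49 on the induced arrays. NSDHL, a sterol dehydrogenase, read 7.02 and 7.39 in SUM159 and 9.07 and 8.89 in MDA-MB-231, and INSIG1, the sterol sensor, 7.51 and 8.18 against 9.37 and 9.67. SQLE, the squalene epoxidase, was the member higher in SUM159, at 10.78 and 11.09 against 8.55 and 8.70. Of 32 NRF2 and xenobiotic genes, 17 were higher in SUM159, against 8 (25.0%) in MDA-MB-231, both above the shares over all genes, and the median went from 1.08 to 0.60 on the induced arrays. GSTP1, a glutathione transferase, read 11.76 and 11.35 against 9.60 and 9.71, but its relative GSTM3 read 3.16 and 3.44 against 8.70 and 8.55. The subunits of the enzyme that starts glutathione synthesis, GCLC and GCLM, were within 2-fold. Of the transporters that export drugs and conjugates, ABCC3 and ABCC2 were higher in SUM159, by 5.55 and 4.34.

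Of 16 HOX genes kept, 10 were 2-fold or more higher in SUM159, against 1 in MDA-MB-231, with a median of 1.18, and 8 of the 10 repeated. Of the 16, 3 were below the cutoff on the MDA-MB-231 control array and passed the filter through SUM159. Among the 13 above it on both control arrays, 8 were higher in SUM159 and 1 in MDA-MB-231. Over all 30 HOX genes measured the median was 0.18, and 11 were below the cutoff on both control arrays. The 5 largest SUM159 differences were all in the HOXC cluster: HOXC10 read 8.75 and 9.06 in SUM159 and 4.88 and 4.60 in MDA-MB-231, HOXC8 differed by 3.27, HOXC4 by 2.44, HOXC6 by 2.04 and HOXC13 by 1.77. HOXB9 was the member higher in MDA-MB-231, at 6.58 and 6.22 against 8.93 and 8.68. Of 39 other developmental transcription factors kept, 9 were higher in SUM159 (7 repeated) and 5 in MDA-MB-231 (2 repeated), shares of 23.1% and 12.8%. SOX9, a factor of epithelial progenitors, read 5.90 and 5.19 against 11.98 and 12.05. TBX18 and EYA2 were higher in SUM159, by 3.50 and 2.57. Of the oncofetal genes, the RNA-binding protein gene IGF2BP3 read 4.45 and 4.43 against 8.11 and 8.51, and LIN28B was below the cutoff on all 4 arrays. Among cancer-testis genes, SSX1 read 5.06 and 5.00 against 10.43 and 10.45 and DDX43 read 7.34 and 7.62 against 4.18 and 4.05.

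Among TGF-beta, BMP and Wnt genes, secreted antagonists and a co-receptor had the largest differences. Of 39 TGF-beta and BMP genes, 10 were higher in SUM159, against 8 in MDA-MB-231, with a median of 0.01. The antagonists FST (follistatin) and NOG (noggin) read 4.44 and 4.08, and 8.52 and 8.66, in SUM159 against 9.56 and 9.50, and 13.24 and 13.39, in MDA-MB-231. BMP4, a ligand that noggin binds, differed by -4.12. ENG (endoglin), a co-receptor, was higher in SUM159 by 5.54 on the control arrays and repeated. The receptor gene TGFBR2 and SMAD5 were within 0.08 of equality. Of 34 Wnt genes, 27 were within 2-fold. DKK3, a relative of DKK1, ran opposite to it, at 10.31 and 11.20 in SUM159 against 5.68 and 5.77.

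MicroRNA genes read by the array are mostly precursors or primary transcripts, so their signals do not measure the mature miRNA. Of the genes past 2-fold in the list of miRNAs linked to epithelial or mesenchymal state, MIR21, MIR221 and MIR222 were higher in MDA-MB-231 and MIR29A in SUM159. The mature sequences are printed with the seed, bases 2 to 8, in capitals (RefSeq, GRCh38.p14), since miR-221-3p and miR-222-3p share theirs, GCUACAU, and the others do not. They lie at chr17:59841273-59841294 (plus strand), chrX:45746180-45746202 (minus), chrX:45747036-45747056 (minus), chr7:130876748-130876769 (minus) and, for the induced miRNA of the construct, chr11:122152275-122152296 (minus).
hsa-miR-21-5p: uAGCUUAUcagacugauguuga
hsa-miR-221-3p: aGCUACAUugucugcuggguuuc
hsa-miR-222-3p: aGCUACAUcuggcuacugggu
hsa-miR-29a-3p: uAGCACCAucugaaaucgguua
hsa-miR-100-5p: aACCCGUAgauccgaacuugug
MIR21 read 4.43 and 5.88 in SUM159 and 8.93 and 9.02 in MDA-MB-231. MIR221 read 7.91 and 8.51 against 9.72 and 9.43, and MIR222 read 3.37 and 3.64 against 4.47 and 5.15. MIR29A read 8.74 and 9.30 against 7.14 and 7.27. These 4 were picked for their control difference, so their separation is a description only. MIR222 was below the cutoff on both SUM159 arrays and passed the filter through MDA-MB-231. Of the 3 higher in MDA-MB-231, 2 were past 2-fold again on the induced arrays and MIR221 was not.

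MIR100, the gene the construct expresses, read 6.56 in the SUM159 control and 8.11 in the MDA-MB-231 control, a difference of -1.55, so the uninduced lines did not start from the same signal. On the induced arrays it read 18.18 and 17.29. The probeset cannot tell the cells' own gene from the construct. Its host gene MIR100HG read 5.84 and 6.19 in SUM159 and 5.20 and 5.39 in MDA-MB-231, within 2-fold. Of the long intergenic RNAs, LINC00958 read 11.56 and 12.66 in SUM159 and 4.10 and 4.15 in MDA-MB-231, and LINC00261 read 3.55 and 3.07 against 7.64 and 7.73. Of 14 housekeeping genes kept, 2 were past 2-fold, PGK1 and POLR2A, both higher in MDA-MB-231. GAPDH read 16.67 and 16.91 against 16.60 and 16.51.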

How the data were processed

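Total RNA was labelled and hybridised to Affymetrix human transcriptome arrays, per the labels' protocols. The authors deposited 1 log2 signal for each of 70523 probesets and each of 4 arrays, made with Affymetrix Expression Console and Transcriptome Analysis Console, per the submitters' processing notes; for summarisation, normalization and genome build, nothing is stated in the sources used here. Array medians were 4.00 to 4.07, and no scaling was added. The number of arrays limits the precision. Exactly 1 symbol was given to 23781 probesets, several to 1543 and none to 45199. Of 21545 gene IDs, 21497 matched the RefSeq table (GRCh38.p14), used for names, gene types and neighbour order.

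Differences on the control arrays were counted at 2-fold. limma 3.58.1 (R 4.3.3) was fitted with a constant prior of 2.58 degrees of freedom, two-sided. On simulated data with 200 of 14418 genes changed it recovered 0% at 2-fold, 85.9% at 4-fold and 98% at 16-fold. False calls per run were 0, 10.8 and 13.8. Far more genes differed in the real data, where 25.6% were past 2-fold and limma called 96.1% of those. The simulated recovery therefore does not carry over to the real fit. Tables and figures were made with Python 3.11.15.

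The members and the 54 lists were chosen with earlier results of these data known. Named genes are the 20 largest protein-coding differences per direction, up to 6 members past 2-fold and 3 nearest 0 per list and the defining markers. MIR100 and its host and the 4 largest MIR and LINC differences per direction were also named. So were up to 6 genes past 2-fold on the control arrays that lay nearest 0 on the induced arrays. MKI67, CCAT1, SNORD116 genes and others said so were added after their values were seen. List members without a probeset of their own are not analysed here.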

Additional observations from a re-analysis of the deposited data

Results flagged for a closer look

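For 8 of the named genes the uninduced arrays differed past 2-fold and the sign was the other way on the induced arrays. Some of the 8 were named because their induced difference lay nearest 0, so their place here follows from that rule. Whether the difference between states is larger than chance was not tested, since each state has 1 array per line. MIR100 differed by -1.55 without the drug and 0.89 with it. ITGB4, the integrin subunit of hemidesmosomes, differed by 1.73 and then by -0.19: it read 9.49 and 7.53 in SUM159 and 7.76 and 7.72 in MDA-MB-231, so the SUM159 control array alone stood apart. IGF2BP2, an RNA-binding protein gene, went from -1.21 to 0.04, the AP-1 gene JUND from -1.04 to 0.02, and CABLES1 from -1.11 to 0.02. On the SUM159 side, GOPC went from 1.16 to -0.03, ZNF830 from 1.23 to -0.03 and ZFP69B from 1.10 to -0.01.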

How the results depend on the processing

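The counts past 2-fold, 1679 and 2009, stayed within 1.5 times of themselves under quantile normalization, median centring, both other signal filters, no filter, the mean over probesets, protein-coding genes alone and the induced arrays. They depend on the fold: 2952 and 3280 genes passed 1.5-fold, 476 and 656 passed 4-fold, and 120 and 135 passed 16-fold. Quantile normalization evened the split to 1852 and 1846. With both control arrays at or above the cutoff, an alternative chosen after seeing the data, 1543 and 1907 genes remained past 2-fold. The limma calls, 2998 and 3438 with state as a block, were 3363 and 3830 without the block, and 3455 and 3420 after quantile normalization. Lists with a median at or below -0.5 numbered 12 on the control arrays and 7 on the induced arrays. The sign turned on the induced arrays for 14 and 9 of all kept genes past 2-fold. Those among the named genes were CABLES1 (0.02), GOPC (-0.03), IGF2BP2 (0.04), ITGB4 (-0.19), JUND (0.02), MIR100 (0.89), ZFP69B (-0.01) and ZNF830 (-0.03). Some of them were named because they lay nearest 0 there, and the cause was not tested.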

Other observations

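The SNORD116 genes, a family of small nucleolar RNAs in the imprinted region on chromosome 15, were described after their values were seen. Of 19 measured, 15 were kept, and 14 of these were 2-fold or more higher in SUM159 and 0 in MDA-MB-231. On the MDA-MB-231 control array 10 of the 15 were below the cutoff, so they passed the filter through SUM159 and had to differ, and the count and the run of neighbours below are descriptions only. SNORD116-18 read 12.45 and 12.19 in SUM159 and 4.68 and 4.47 in MDA-MB-231, and SNORD116-15 read 12.22 and 12.69 against 3.88 and 3.99. SNORD116-24 read 8.90 and 8.78 against 3.14 and 3.01, and SNORD116-10, the kept member within 2-fold, 4.93 and 4.28 against 4.35 and 4.45. The copies are near-identical and can share probes, so single members are uncertain. Of 85 other kept SNORD genes, 29 (34.1%) were 2-fold or more higher in SUM159, against 1 (1.18%) in MDA-MB-231, with a median of 0.57. Over all kept genes these shares were 11.6% and 13.9%. Among all 154 of these SNORD genes measured the median was 0.2, and 63 were below the cutoff on both control arrays.

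In the order of the RefSeq table, 9 SNORD116 genes were also the sole run of 5 or more neighbouring kept genes that were past 2-fold higher in SUM159 on both the control and the induced arrays. On the MDA-MB-231 side there were 15 such runs among the 14261 genes placed. The longest held 8 genes, from RPL7L1 to RRP36, with differences from -3.14 to -1.22. Another held LIPA and the IFIT genes, and another SEMA3C, CACNA2D1, PCLO, SEMA3E and SEMA3A, with differences from -4.80 to -1.12. Copy number was not measured here.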
